A study of Mus musculus with 11 samples.

Results

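The genes described here guide lymphocytes into, within and out of lymphoid tissue. They are the chemokine receptors Cxcr5, Ccr6, Ccr7 and Cxcr4, the sphingosine 1-phosphate receptor S1pr1, the transcription factor Klf2 and the integrin subunit Itgb7. They were chosen by name as receptors and regulators of lymphocyte homing and egress, with earlier results of these data known. Every probe set annotated to a single one of them was taken. Each of the 7 genes had 1 such probe set, so 7 probe sets are described, from a table that named 12393 genes through probe sets with 1 gene.

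The tumours were B cell lymphomas that arose sporadically in E-mu-BRD2 mice on the FVB background. All of them carry BRD2, a bromodomain protein, under the immunoglobulin heavy chain enhancer, which directs the transgene to B lymphocytes, and every tumour was recorded as oligoclonal for immunoglobulin. RNA of 5 transitional and 6 marginal lymphomas, the names of severity classes, was hybridised with 1 array a sample. Age and the tissue of the RNA are not given in the sources used here, no normal B cells were analysed here, and p-values measure the spread between these samples. The spleen enlargement of each animal was recorded in words. The grade was marginal for marginal 1, mild for marginal 2, 3 and 4 and transitional 3, moderate for marginal 5 and 6, moderately severe for transitional 4 and 5, and severe for transitional 1 and 2. Class and grade therefore share animals, and mild is the only grade that holds both classes. All transitional animals and marginal 2 and 3 were recorded as failing to nest. Marginal 1, 4 and 5 had a neck, leg or haunch tumour, and marginal 6 had paralysis and cells typed as B220+, CD5+ and CD11b+.

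In lymphoid tissue, stromal cells make chemokines that draw lymphocytes bearing the matching receptor. CXCR5 follows CXCL13 into the B cell follicle, CCR7 follows CCL19 and CCL21 to the T cell zone and its border with the follicle, CCR6 answers CCL20, and CXCR4 answers CXCL12, as in bone marrow and the germinal centre dark zone. Lymphocytes leave by S1PR1, which senses the sphingosine 1-phosphate of blood and lymph. KLF2 is a zinc finger factor that drives transcription of S1pr1 in lymphocytes. Integrin beta 7 pairs with integrin alpha 4 to bind MAdCAM-1 on vessels of the gut, or with integrin alpha E to bind E-cadherin.

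On the GRCm38.p6 assembly Cxcr5 lies on chromosome 9 (44511787 to 44526444), Ccr6 on chromosome 17 (8236041 to 8258519), Ccr7 on chromosome 11 (99144199 to 99155077), Cxcr4 on chromosome 1 (128588199 to 128592299), S1pr1 on chromosome 3 (115710433 to 115715055), Klf2 on chromosome 8 (72319062 to 72321654) and Itgb7 on chromosome 15 (102215994 to 102233405). A RefSeq promoter was found for 4 of the genes, Ccr6, Itgb7, Cxcr4 and Klf2, with 2 windows for Ccr6. The 250 bases before the start are shown for 1 window of each. No window was found for Cxcr5, Ccr7 and S1pr1. Capitals mark the KLF motif CCACCC and the GC box GGGCGG, each searched on both strands, so GGGTGG and CCGCCC count as well. The matches did not overlap.
Itgb7, chr15:102231936-102232185, minus strand: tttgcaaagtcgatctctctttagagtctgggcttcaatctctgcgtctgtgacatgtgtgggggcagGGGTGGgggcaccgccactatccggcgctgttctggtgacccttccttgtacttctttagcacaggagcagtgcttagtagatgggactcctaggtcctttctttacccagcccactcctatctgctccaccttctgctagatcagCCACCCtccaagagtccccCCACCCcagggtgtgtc
Ccr6, chr17:8235793-8236042, plus strand: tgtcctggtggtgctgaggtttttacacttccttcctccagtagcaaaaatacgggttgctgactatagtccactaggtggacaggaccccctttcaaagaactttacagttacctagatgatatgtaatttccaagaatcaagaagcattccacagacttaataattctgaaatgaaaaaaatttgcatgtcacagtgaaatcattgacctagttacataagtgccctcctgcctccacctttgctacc
Cxcr4, chr1:128592300-128592549, minus strand: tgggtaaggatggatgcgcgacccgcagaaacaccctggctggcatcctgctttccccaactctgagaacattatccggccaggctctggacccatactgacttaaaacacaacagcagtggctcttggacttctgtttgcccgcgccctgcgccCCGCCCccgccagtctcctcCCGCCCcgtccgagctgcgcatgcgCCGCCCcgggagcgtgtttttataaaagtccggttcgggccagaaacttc
Klf2, chr8:72318812-72319061, plus strand: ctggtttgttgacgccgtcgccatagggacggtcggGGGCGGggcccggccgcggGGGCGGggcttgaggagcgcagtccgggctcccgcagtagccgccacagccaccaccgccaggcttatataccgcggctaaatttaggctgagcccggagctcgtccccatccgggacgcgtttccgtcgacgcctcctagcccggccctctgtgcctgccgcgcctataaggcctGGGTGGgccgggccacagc

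The Itgb7 window lies inside the gene span given above, before a start within that span. It held 3 KLF motifs, starting 182, 36 and 17 bases before that start, and no GC box. The Klf2 window held 1 KLF motif and 2 GC boxes, and the Cxcr4 window 3 GC boxes. The Ccr6 windows held neither. Among all 32851 RefSeq windows of this length, 28.1% held the KLF motif and 32.7% the GC box. The FOXO motif GTAAACA, in 3.17% of windows, had no match in the 5 windows of these genes. A match is a run of letters and not a measured binding site.

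Before the genes were compared, the arrays were set beside markers of the cells the samples could hold. RNA of transitional 4 and 5, the moderately severe spleens, stood apart. The mean log2 signal of the 9 B cell markers measured was 8.98 on transitional 4 and 8.82 on transitional 5, against 10.63 to 12.30 on the other 9 arrays. The mean of the 8 erythroid markers measured was 12.00 and 11.72 there, against 6.76 to 11.42. The defining B cell markers were measured on every array, with Cd79a, a chain of the B cell receptor complex, at 910.0 to 11303 in transitional and 4149 to 16736 in marginal lymphomas. Of the T cell receptor complex, Cd3e was at 14.2, Cd3g at 23.9 and Cd3d at 30.9 on transitional 5, the lowest of all arrays. The ratios of 3-prime to 5-prime signal for Gapdh, a measure of RNA integrity, overlapped between classes, with 0.635 to 0.721 in transitional and 0.639 to 0.839 in marginal lymphomas. In bulk RNA, fewer cells of a type and less RNA per cell cannot be told apart. The class differences of the homing and egress genes are therefore also given without transitional 4 and 5. Those of the marker and pathway lists are given only with these arrays included.

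All 7 genes had a lower mean log2 signal in transitional than in marginal lymphomas, though Cxcr4 did not once arrays were scaled by their medians, and none passed the test. The median log2 difference of the 7 was −0.67, and that of all 13576 tested probe sets was −0.06. A lower mean was also found for 57.6% of all tested probe sets. Each difference is the transitional mean minus the marginal one, on a log2 scale with 16 added to every signal to limit the noise of dim ones. In limma 0 of the 7 genes were called at a Benjamini-Hochberg adjusted p of 0.05 (background 0.0%), and 1, S1pr1, had an unadjusted p under 0.05 (background 3.34%). Cxcr5, Ccr6 and S1pr1, 3 of the 7, had a log2 difference below −1 (background 1.42%). The adjusted p was 0.999 for each gene, and the signals of the classes overlapped for each gene.

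**Figure D1:**
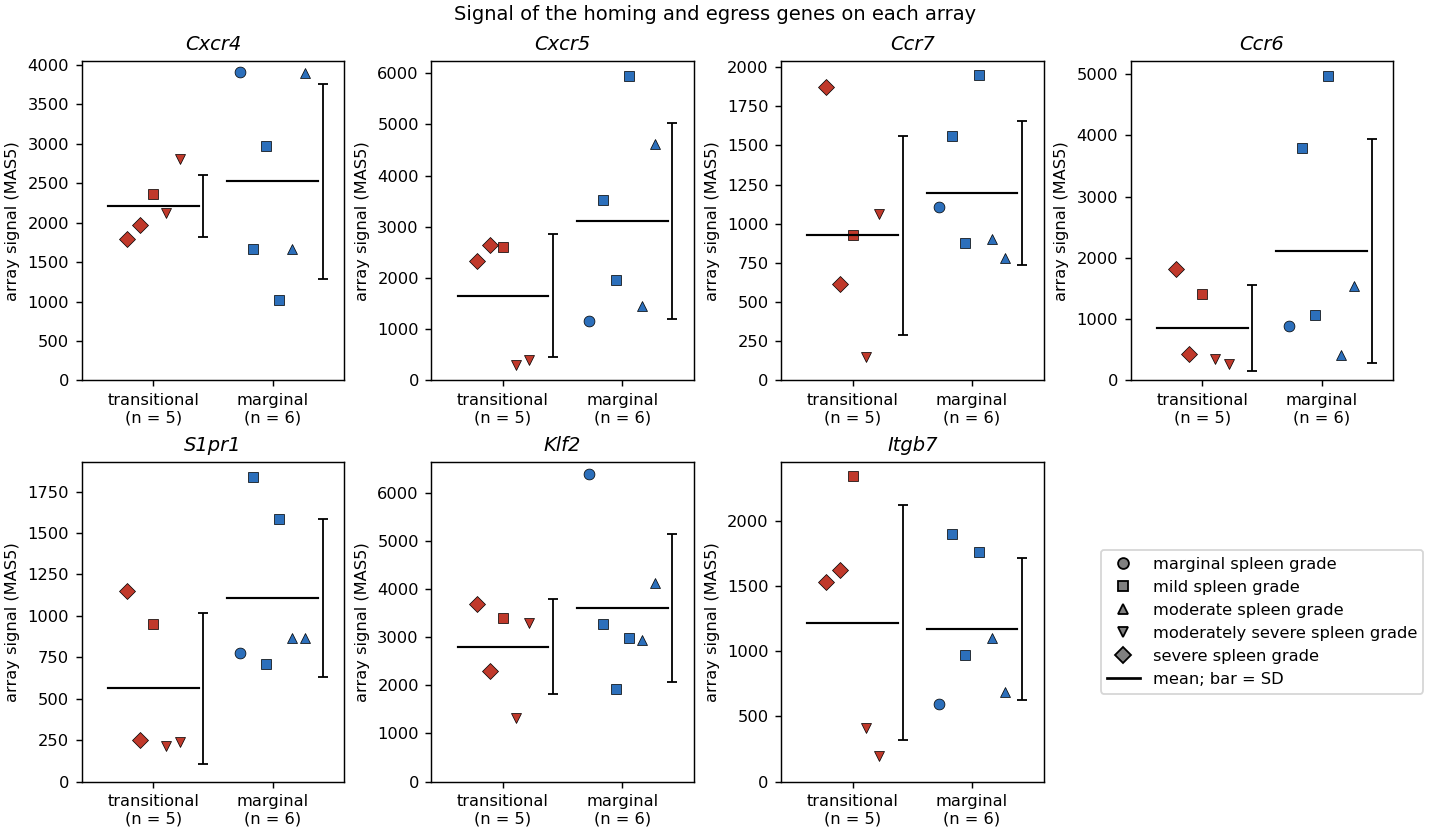
Array signal (linear MAS5 units) of the 7 genes on each transitional array (red, left) and each marginal array (blue, right), with marker shapes for the spleen grade, lines at class means and bars of 1 SD. The moderately severe arrays are the lowest for Cxcr5, Ccr6, S1pr1 and Itgb7, and the classes overlap for every gene.

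Cxcr5, the follicle homing receptor, had signals of 2338, 2643.5, 2605, 309.6 and 392.5 on transitional 1 to 5. The marginal arrays ran from 1167 on marginal 1 through a median of 2737 to 5952 on marginal 4. The 3 other transitional lymphomas lay within the marginal range, and only the moderately severe ones lay below it. The class means were 1658 ± 1199 in transitional (SD, n = 5) and 3110.4 ± 1918.5 in marginal lymphomas (SD, n = 6), which differed by −1.17 in log2 (SE 0.66, two-sided exact permutation p = 0.1645; this and the like p-values of the other 6 genes are unadjusted). Cxcr5 varied more over the 11 arrays than 95.5% of tested probe sets, with a 19.2-fold span. Without transitional 4 and 5 the difference was −0.05 (SE 0.47), and without transitional 4 alone it was −0.71.

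Ccr6, the CCL20 receptor, had signals of 1813, 430.6, 1407, 348.4 and 274.2 on transitional 1 to 5. Its marginal signals ran from 422.6 on marginal 5 through a median of 1305 to 4969.9 on marginal 4. The 2 highest signals stood apart, since marginal 2 followed at 3799 and the next array was at 1813. Marginal 2 and 4 were both graded mild. The means were 855 ± 707 in transitional (SD, n = 5) and 2115 ± 1831.5 in marginal lymphomas (SD, n = 6). The log2 difference was −1.22 (SE 0.67, two-sided exact permutation p = 0.1645), and −0.54 (SE 0.72) without transitional 4 and 5. The severe lymphoma transitional 2 and the moderate one marginal 5 were near the moderately severe ones in Ccr6, although the Cxcr5 signal of transitional 2 was the fourth highest of all arrays.

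Ccr7, the receptor for the T cell zone chemokines, had signals of 1871, 617.4, 929.5, 146.9 and 1064 on transitional 1 to 5, against a marginal range of 784.1 on marginal 6 through a median of 1005 to 1948 on marginal 4. Here the 2 moderately severe lymphomas parted. Transitional 4 was the lowest of all 11 arrays, while transitional 5 was the fifth highest, although its Cd3d, Cd3e and Cd3g signals were the lowest of all and its B cell marker mean was the lowest too. The means were 926 ± 635 in transitional (SD, n = 5) and 1197.5 ± 461 in marginal lymphomas (SD, n = 6), a log2 difference of −0.67 (SE 0.52, two-sided exact permutation p = 0.320). Without transitional 4 alone it was −0.13, and without transitional 4 and 5 it was −0.14 (SE 0.38).

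Cxcr4, the CXCL12 receptor, was the steadiest of the receptors. Its signals were 1794, 1975, 2358, 2122 and 2808 on transitional 1 to 5, and the marginal arrays ran from 1026 on marginal 4 through a median of 2322 to 3905 on marginal 1. All transitional signals lay inside the marginal range, and the moderately severe arrays were not low. Marginal 4 was the highest of all for Cxcr5, Ccr6 and Ccr7 and the lowest for Cxcr4, whereas marginal 6 was the second highest for both Cxcr5 and Cxcr4. The means were 2211 ± 392.5 in transitional (SD, n = 5) and 2523 ± 1239.9 in marginal lymphomas (SD, n = 6). The log2 difference was −0.04 (SE 0.34, two-sided exact permutation p = 0.922), and its sign turned under 7 of the 24 alternatives, for example to 0.08 after scaling each array by its median. Without transitional 4 and 5 the difference was −0.15 (SE 0.40).

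S1pr1, the egress receptor, had signals of 1152, 248.9, 952.1, 216.4 and 239.8 on transitional 1 to 5. The marginal arrays ran from 711.1 on marginal 3 through a median of 868 to 1840.4 on marginal 2. Transitional 2, 4 and 5 lay below every marginal array, and transitional 1 and 3 lay within the marginal range. The means were 562 ± 453 in transitional (SD, n = 5) and 1107.5 ± 479 in marginal lymphomas (SD, n = 6), a log2 difference of −1.23 (SE 0.47, two-sided exact permutation p = 0.0649). Only 0.516% of tested probe sets had a lower class difference. Without transitional 4 and 5 it was −0.65 (SE 0.47), where transitional 2 was the only array below the marginal range.

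Klf2, the factor known to drive S1pr1, had signals of 3697, 2302, 3406, 1318 and 3293 on transitional 1 to 5. The marginal arrays ran from 1912 on marginal 3 through a median of 3127 to 6379.7 on marginal 1. Transitional 4, lowest of all arrays for S1pr1, was also lowest for Klf2, but transitional 5, with nearly as little S1pr1, was the fifth highest for Klf2. Marginal 1, highest of all for Klf2, was the seventh highest for S1pr1. The means were 2803 ± 982 in transitional (SD, n = 5) and 3598 ± 1535 in marginal lymphomas (SD, n = 6), a log2 difference of −0.35 (SE 0.33, two-sided exact permutation p = 0.372) that was −0.13 (SE 0.33) without transitional 4 and 5. Without transitional 4 alone it was −0.10, and without marginal 1 alone −0.17.

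Itgb7, the integrin subunit of gut homing, had signals of 1527, 1624, 2342, 407.9 and 193.5 on transitional 1 to 5. The marginal arrays ran from 592.0 on marginal 1 through a median of 1037 to 1895 on marginal 2. Transitional lymphomas thus held both ends of the order, with transitional 3 the highest and transitional 5 the lowest of all arrays. The means were 1219 ± 898 in transitional (SD, n = 5) and 1168 ± 546 in marginal lymphomas (SD, n = 6), so the linear mean was higher in transitional lymphomas while the log2 difference was −0.30 (SE 0.59, two-sided exact permutation p = 0.675). Without transitional 4 and 5 the direction turned, to 0.75 (SE 0.37, limma adjusted p = 0.677).

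Both moderately severe arrays lay below all 9 other arrays for Cxcr5, Ccr6, S1pr1 and Itgb7, that is 4 of the 7 genes, and not for Ccr7, Cxcr4 or Klf2. The same held for 20.3% of all tested probe sets. The mean log2 signal on these 2 arrays minus that on the other 9 was −2.84 for Cxcr5, −2.11 for Itgb7, −2.05 for Ccr6 and −1.89 for S1pr1, against −1.41 for Ccr7, −0.64 for Klf2 and 0.17 for Cxcr4. These arrays also had the lowest B cell marker means and the highest erythroid ones. Their median signals were the lowest too, at 107.75 and 98.75, against 119.1 to 151.05 on the other 9 arrays. The part of any of these in the values above was not tested. No test was made for 2 arrays against 9.

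**Figure D2:**
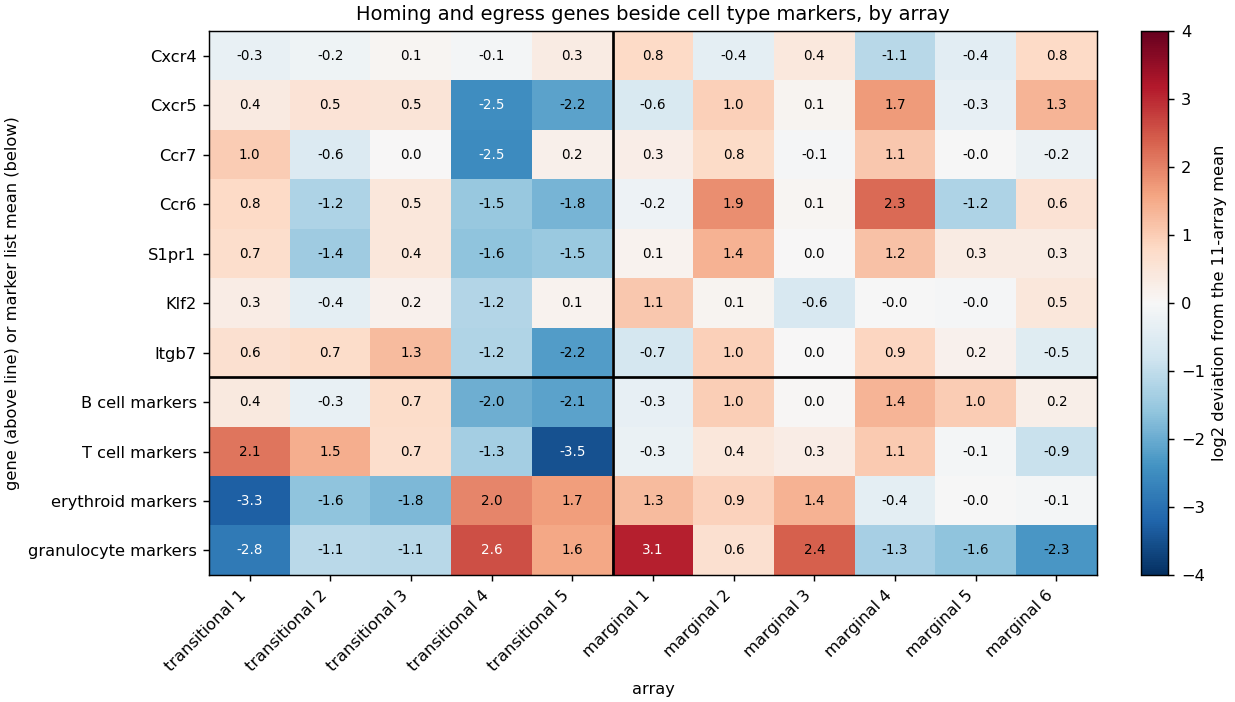
Log2 deviation from the 11-array mean of each gene (above the line) and of the mean of 4 cell type marker lists (below), for the transitional arrays (left) and the marginal arrays (right), red above and blue below the mean. On transitional 4 and 5 Cxcr5, Ccr6, S1pr1, Itgb7 and the B cell markers are low and the erythroid markers high, while Cxcr4 is near its mean.

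The marker lists were also set between the classes, and none of their genes was called in limma (background 0.0%). In transitional lymphomas 9 of 9 tested B cell markers had a lower mean, with a median log2 difference of −1.13, and their summed signal ran from 6869 to 70497, against 24363 to 87495 in marginal lymphomas. Of 11 tested T cell markers 9 had a lower mean, and their summed signal ran from 393.5 to 32629 in transitional and from 4869 to 14767 in marginal lymphomas. The summed signal of the erythroid markers ran from 1125.5 to 70943 in transitional and from 17488 to 51052 in marginal lymphomas, and all 7 tested had a lower mean in transitional lymphomas although transitional 4 and 5 had the highest sums. Granulocyte markers had a lower mean in 7 of 9, with sums of 8893 to 157011 in transitional and 10972 to 200580.1 in marginal lymphomas. Macrophage markers had a higher mean in transitional lymphomas in 6 of 8 (median 0.40), and natural killer cell markers in 4 of 5 (median 0.24). The part of any of these cells in the values of the 7 genes was not tested beyond the fits that follow.

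With the B cell marker mean as a covariate the class difference was 0.07 (SE 0.45) for Cxcr5, −0.20 (SE 0.61) for Ccr6, −0.37 (SE 0.34) for S1pr1, −0.02 (SE 0.52) for Ccr7, −0.21 (SE 0.39) for Klf2, −0.45 (SE 0.34) for Cxcr4 and 0.95 (SE 0.28) for Itgb7, and none was called in limma (smallest adjusted p = 0.162, for Itgb7). With the erythroid marker mean as a covariate Cxcr5 and S1pr1 were lower in transitional lymphomas past the threshold, at −1.89 (SE 0.39, limma adjusted p = 0.0257) and −1.66 (SE 0.37, limma adjusted p = 0.0315). That fit called 5.25% of all tested probe sets. Ccr6 was at −1.71 (SE 0.60, limma adjusted p = 0.105) in the same fit. For Cxcr5, Ccr6, Ccr7, S1pr1 and Klf2 the difference was nearer 0 with the B cell covariate and farther from 0 with the erythroid one. The calls for Cxcr5 and S1pr1 were made under this 1 of 24 alternatives only.

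**Figure D3:**
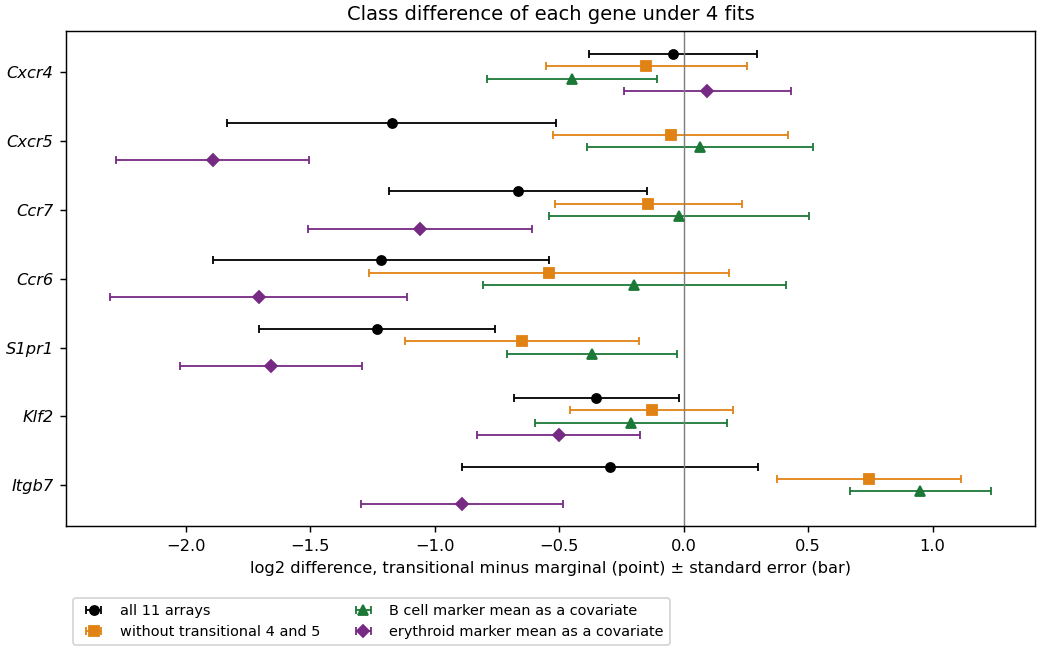
Class difference (log2, transitional minus marginal, points) with its standard error (bars) for each gene in 4 limma fits: all 11 arrays, without transitional 4 and 5, with the B cell marker mean and with the erythroid marker mean as a covariate. Itgb7 changes sign between fits, and Cxcr4 stays between −0.45 and 0.10.

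Spleen grade, ranked from 1 (marginal) to 5 (severe), gave a negative slope for all 7 genes, as for 54.9% of tested probe sets. None was called in limma (0 of 7, background 0.0%), and S1pr1 was the 1 gene with an unadjusted p under 0.05 (background 2.15%). The slope per grade step was −0.47 (SE 0.26) for Ccr6, −0.44 (SE 0.19) for S1pr1, −0.27 (SE 0.28) for Cxcr5, −0.21 (SE 0.21) for Ccr7, −0.17 (SE 0.13) for Klf2, −0.13 (SE 0.23) for Itgb7 and −0.07 (SE 0.13) for Cxcr4 (none called in limma, lowest adjusted p over all probe sets 1.0). With class in the model the slopes were closer to 0 for S1pr1 (−0.19, SE 0.27) and Ccr6 (−0.26, SE 0.38), and that of Cxcr5 was positive (0.11, SE 0.38). No gene had an unadjusted p under 0.05 in that fit (background 2.20%) or for a difference of slopes between classes (background 10.8%). Without transitional 3, the mild one, the transitional arrays held only moderately severe and severe spleens. In that fit the difference of slopes was called for 1 of the 7, Itgb7 (limma adjusted p = 0.0497, background 9.85%). With array weights, whose estimation stopped early in this fit, the difference of slopes was called for Ccr7, Cxcr5 and Itgb7 (background 36.4%).

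The values did not follow the grade in steps. Mean Cxcr5 signal was 1167 in the marginal grade (n = 1), 3508 in mild (n = 4), 3034 in moderate (n = 2), 351 in moderately severe (n = 2) and 2491 in severe spleens (n = 2). Itgb7 was likewise lowest in the moderately severe grade, with 592.0, 1743, 892.5, 300.7 and 1575 from marginal to severe. S1pr1 averaged 773.4, 1272, 868, 228 and 700.4, and the 2 severe lymphomas differed 1152 against 248.9. Mild was the grade with the highest mean for Cxcr5, Ccr6, Ccr7, S1pr1 and Itgb7, while Cxcr4 and Klf2 were highest on the 1 array of the marginal grade. Within mild, the single transitional lymphoma had 952.1 of S1pr1 and 1407 of Ccr6, against means of 1378 (711.1 to 1840.4) and 3281 (1075 to 4969.9) on the 3 marginal ones, inside their range. Its Itgb7 signal of 2342 was above their range of 972.9 to 1895.

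**Figure D4:**
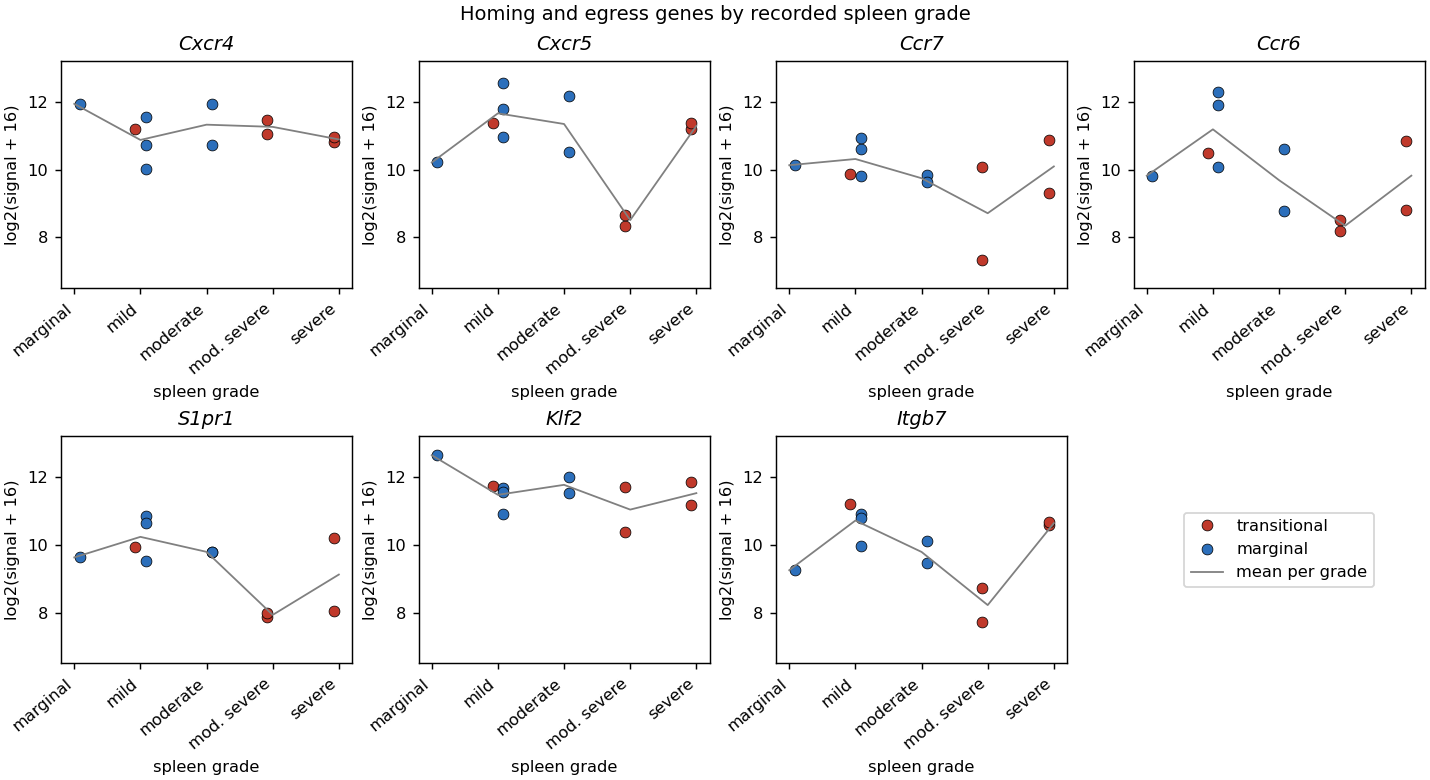
Log2(signal + 16) of each gene on every array by spleen grade, from marginal to severe, with transitional (red) and marginal lymphomas (blue) and the mean of each grade (grey line). Cxcr5 and Itgb7 are low in the moderately severe grade and not in the severe one, and Cxcr4 and Klf2 are highest on the 1 array of the marginal grade.

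The genes most like each of the 7 were sought by Pearson r over the 11 arrays among 12473 tested probe sets with 1 gene. They are the largest of many values, given with no p, and the points share the arrays. The points of Cxcr5, Ccr6, S1pr1 and Itgb7 also share the low signals of transitional 4 and 5. For Ccr7 and Klf2 only transitional 4 was low. For Cxcr5 the likest genes were Traf2 (r = 0.974), Asb13 (r = 0.969) and Cd40 (r = 0.969), with r = 0.941, 0.887 and 0.880 over the 9 arrays without transitional 4 and 5. For Ccr6 they were Faap20 (r = 0.969), Cnr2 (r = 0.963) and Ppcs (r = 0.952), and that of Cnr2, the cannabinoid receptor CB2, was 0.979 over 9 arrays. S1pr1 was closest to Tesk1 (r = 0.960), Bmyc (r = 0.950) and Rftn2 (r = 0.950), and Itgb7 to Tbl1xr1 (r = 0.976), H2-M3 (r = 0.965) and Actr3 (r = 0.964). Ccr7 was closest to Kcnk5 (r = 0.913), Pnrc1 (r = 0.911) and Ring1 (r = 0.877), but with r = 0.766, 0.751 and 0.451 over 9 arrays. Klf2 was closest to Tbc1d13 (r = 0.906), Zc3h12a (r = 0.873) and Jund (r = 0.854), with r = 0.832, 0.759 and 0.728 over 9 arrays. Cxcr4 was closest to Rab11a (r = 0.873), Usp18 (r = 0.839) and Nme6 (r = 0.825), with r = 0.883, 0.869 and 0.930 over 9 arrays. No gene of the 7 was among the nearest 3 of another.

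The wider pathway was read from lists of 60 genes, of which 49 were on the array and 45 were tested. None was called between classes (limma, background 0.0%), and 3 had an unadjusted p under 0.05 (background 3.34%). The class difference was negative for 33 of the 45 genes (57.6% of all tested probe sets) and positive for 12. Both moderately severe arrays were below the other 9 for 19 of the 45, against 20.3% of all tested probe sets.

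Of the chemokine ligands, Cxcl13 was the 1 tested gene. It was at 6698 on transitional 2 and between 25.4 and 544.1 on all other arrays, so the ligand of CXCR5 was bright in a single tumour. Vcam1 and Madcam1, ligands of vessels and stroma, were also highest on transitional 2. Vcam1, which binds integrin alpha 4 beta 1, was at 8522 (next highest 1439). Madcam1, which binds integrin alpha 4 beta 7, was at 673.9 (next highest 123.2). Icam2 of the same list was highest on transitional 3, at 1420.6. The macrophage marker mean of transitional 2 was 11.56, on a list that includes Vcam1 itself. The stroma and endothelium marker mean of this array was 8.45, over 8 genes of which 2 were tested. The part of these cells in the ligand signals was not tested.

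Of 7 tested other chemoattractant receptors 5 had a lower mean in transitional lymphomas, with a median log2 difference of −0.52. Ackr3, the atypical receptor that scavenges CXCL12, was at 472 ± 537 in transitional (SD, n = 5) and 789 ± 585 in marginal lymphomas (SD, n = 6), a log2 difference of −1.30 (SE 0.90, limma adjusted p = 0.999). Cnr2 differed by −0.83 (SE 0.60), with the 2 highest signals on marginal 2 and 4, as for Ccr6.

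Of 7 tested genes of sphingosine phosphate handling 6 had a lower mean in transitional lymphomas, with a median of −0.30. S1pr4, another receptor of this lipid on lymphocytes, differed by −0.51 (SE 0.38), and Plpp3, a lipid phosphatase that degrades it, by −0.60 (SE 0.57). Sphk1, a kinase that makes the lipid, ran the other way on the moderately severe arrays, at 1780.2 and 1343 on transitional 4 and 5 and at most 756.7 elsewhere, where erythroid markers were also highest.

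Of the partners of integrin beta 7, Itga4 was at 768.6 and 730.6 on transitional 4 and 5. Both lay inside the range of 193.9 to 1068 on the marginal arrays. Itgae had its lowest 2 signals on transitional 4 and 5, at 8.6 and 54.6. Its signal was dim on every array (at most 195.8), and 54.6 was close to the 56.7 of marginal 2. The list of homing integrins and other adhesion genes held 5 genes with a higher and 6 with a lower mean of 11 tested, with a median of −0.11. The members with the smallest p were Icam2 at −0.49 (SE 0.43) and Madcam1 at 0.63 (SE 0.62).

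Among transcription factors tied to homing genes 5 of 6 had a lower mean in transitional lymphomas (median −0.24). Foxo1, which drives Klf2 transcription in lymphocytes, was at 169.7 and 127.9 on transitional 4 and 5 and at 405.6 to 1291 on the other arrays, and its class difference was −0.94 (SE 0.54). Foxp1 differed by −1.04 (SE 0.48). Marginal 1, highest of all in Klf2, was second highest in the related factors Klf4 (1176) and Klf6 (3499), and transitional 5 was highest in both (1959 and 3959).

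Of 13 tested genes of G protein signalling and migration 11 had a lower mean in transitional lymphomas (median −0.43). The exception with the smallest p in the list was Rgs1, which shortens chemokine receptor signalling in B cells. It was at 1086, 3512, 1205, 231.3 and 3386 on transitional 1 to 5, against 192.4 to 910.5 in marginal lymphomas. Transitional lymphomas other than transitional 4 were thus above every marginal one, a log2 difference of 1.84 (SE 0.64, limma adjusted p = 0.999). Rgs19 differed by −0.76 (SE 0.29) and Dock8, needed for lymphocyte migration, by −0.94 (SE 0.40).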

How the data were processed

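RNA of 5 transitional and 6 marginal lymphomas was measured on 1-colour expression arrays. The deposited values are linear intensities, and the submitters' processing notes name MAS5. The 2% trimmed mean was 500.2 on all arrays, so a shift of most transcripts would not be seen. Per the labels' protocols cRNA was made from poly-dT primed cDNA. The number of arrays limits the precision. No scan or batch record was used. No arrays held identical values.

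Of 22690 probe sets, 64 controls were left out. The upper 60% by mean log2(intensity + 16), 13576, were tested with limma 3.58.1 in R 4.3.3 (lmFit, eBayes with trend, two-sided, Benjamini-Hochberg adjusted p 0.05). All 7 genes described passed this filter. Of the non-control probe sets 20380 had 1 gene in GEO's annotation of the array, 691 several and 1555 none, with symbols brought up to date by Entrez identifier. Exact permutation tests used the 462 splits (scipy 1.17.1). Lists compared between classes used the brightest tested probe set of a gene. Marker means and sums of each array, and the covariates, used the brightest probe set, tested or not. Likeness was Pearson r. Named genes were the 7, the 2 smallest p of each pathway list and 3 likest genes each, plus Dock8, Vcam1, Itga4, Itgae, Sphk1, Klf4 and Klf6, chosen after their values were seen. The members and lists were chosen with earlier results of these data known. Fits were tested on simulated data. Alternatives covered offset, scaling, filter, trend, weighted arrays, a block for the sample number, failure to nest, covariates and arrays left out.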

Additional observations from a re-analysis of the deposited data

Results flagged for a closer look

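Of 36 pairs of a named gene and a class examined for a sample far from the others of its class, 2 stood out, and chance gives about 1 in 20. Cxcl13 was at 6698 on transitional 2, against 32.8 to 165.4 on the other transitional arrays. Rgs19, a regulator of G protein signalling, was at 3163 on marginal 6, against 1760.5 to 2173 on the other marginal arrays. None of the 7 homing and egress genes had such a sample.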

How the results depend on the processing

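Between classes and along the grade, 0 probe sets were called under every alternative without a covariate (limma, lowest adjusted p = 0.114 and 0.208). Leaving out 1 array gave 0 to 1145 calls for the grade with class (1145 without transitional 3, 1 without transitional 1) and 0 to 1337 for the difference of slopes (1337 without transitional 3, 1 without transitional 5). Without transitional 3 the transitional arrays held only moderately severe and severe spleens. Without transitional 4 and 5 the difference of slopes had 15 calls. Array weights gave 4936, with weights of 7.29e-06 to 24.1 whose estimation stopped early. Of the 7 genes, 2 were called between classes with the erythroid covariate and 0 otherwise. The cause was not tested.

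Signs turned for Cxcr4 between classes (median scaling 0.082, replicate block 0.11, erythroid covariate 0.10, and −0.27 to 0.12 leaving out 1 array), Cxcr5 (B cell covariate 0.066), Klf2 (only animals that failed to nest, 0.072) and Itgb7 (array weights 0.15, without transitional 4 and 5 0.75, B cell covariate 0.95, and −0.65 to 0.22 leaving out 1 array). Slopes turned for Cxcr4 (−0.15 to 0.036 leaving out 1 array), Cxcr5 (0.051 without transitional 4 and 5, 0.11 with the B cell covariate) and Itgb7 (array weights 0.012, without transitional 4 and 5 0.12, B cell covariate 0.18, and −0.29 to 0.005 leaving out 1 array). Differences and slopes of Ccr6, Ccr7 and S1pr1 kept their sign under all 24 alternatives. Leaving out 1 array gave class differences of −1.58 to −0.996 for S1pr1, −1.47 to −0.71 for Cxcr5, −1.01 to −0.13 for Ccr7 and −0.51 to −0.10 for Klf2, each nearest 0 without transitional 4. The median of all class differences was −0.057, and 0.063 after median scaling. The sample numbers do not pair the samples (correlations of −0.452 to −0.088 between same-numbered arrays, none best with its own number), and with the replicate block 0 probe sets were called between classes. The difference of slopes could not be fitted to the animals that failed to nest alone.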
